A study of Mus musculus with 9 samples.

Results

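The genes described here are those of the machinery that copies DNA in S phase, followed in sorted forebrain cells of mouse embryos that had received GemC1 or Mcidas. A list of 43 gene names set the membership, and 42 of them were matched by mouse symbol (GRCm38) to the 53379 Ensembl identifiers of the count tables. The remaining name, Ung2, is no symbol in that annotation and is a synonym of both a uracil-DNA glycosylase gene and the cyclin O gene, so it was given no value. The GemC1 group received the plasmid pCAGGS-GemC1, the Mcidas group received pCAAGS-Mcidas (as the labels spell it), and the GFP group received the H2B-GFP reporter plasmid without either factor. All 3 groups came from C57Bl6DBa2 embryos electroporated in utero at E14.5. Cells were sorted for GFP 2 days later, at E16.5, and each group held 3 libraries. Both factors are nuclear proteins related to geminin, and both are known to turn progenitors to the multiciliated fate. The series set out to learn how GemC1 brings that fate about. Delivery by plasmid raises each factor above what the resident gene gives, and the counts do not separate plasmid from chromosomal transcripts.

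Total counts ran from 22914704 to 41163917 per library, and the 42 genes together took between 0.220% and 0.304% of them. The introduced genes matched the labels, with Gmnc (the gene for GemC1) at 291, 223 and 317 CPM (counts scaled to library size with TMM factors) in the GemC1 libraries, 0.26, 0 and 0.26 CPM in the Mcidas libraries and 0 in each GFP library. Mcidas stood at 76.8, 60.3 and 73.1 CPM in the GemC1 libraries, 387.5, 507.5 and 596.9 CPM in the Mcidas libraries, and 0.65, 0.66 and 0.69 CPM in the GFP libraries. The cells are labelled as neural progenitors. All 10 radial glia markers and all 10 excitatory neuron markers were counted in every library. The Mcidas libraries carry another year code in their deposited names than the other libraries, so if the code marks a batch, it cannot be told apart from the group.

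DNA replication proceeds in steps carried by separate protein groups. Origins are marked by the origin recognition complex and fired by the Cdc7-Dbf4 kinase, the helicase of Cdc45, GINS and the MCM ring unwinds DNA, polymerase alpha-primase lays primers, and polymerases delta and epsilon extend them while held by the PCNA ring that the RFC complex loads. Many of these genes are read out together when E2F transcription factors are released at the start of S phase, and in the embryonic cortex they mark the cycling radial glia and intermediate progenitors rather than neurons. GemC1 and Mcidas themselves are known to act with E2F4 or E2F5 and DP1.

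Only a few of the 42 genes were called changed. Dtl, Slbp and Pola2 rose in GemC1 and in Mcidas, Hells rose in Mcidas, and no member fell in either comparison (edgeR quasi-likelihood test, Benjamini-Hochberg adjusted p under 0.05 over 19572 genes). All 42 members passed the filter on low counts and were tested. In GemC1 against GFP 3 of 42 members rose, or 7.14%, where 3.86% of all genes tested rose and 1.32% fell. These counts depend on the analysis: DESeq2 called 5 members higher, edgeR with no filter on low counts 6, and edgeR without GFP replicate 3 called 2. Of all genes 756 rose and 259 fell, against 443 and 32 without GFP replicate 3, and 472 and 42 without GFP replicate 2. In Mcidas against GFP 4 of 42 rose, or 9.52%, where 4.03% of all genes rose and 0.327% fell. The members were chosen with earlier results of these data known, so neither share of members is independent of the data. The 2 comparisons share the same 3 GFP libraries, so a gene that is called in both is not called on independent samples. Across DESeq2 and the other edgeR settings, the members called only there were Rpa1, Chaf1b, Pold1, Rrm2 and, between the factors, Hells, and the settings are named beside each gene.

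The promoters of the 4 genes that rose are printed because they are the members whose transcripts moved. They span 250 bases before to 50 bases after the gene start in RefSeq (GRCm38.p6), read 5′ to 3′ along the gene. Capitals mark E2F-like letters, which were searched on both strands as TTTCCCGC, TTTCCCGG, TTTCGCGC, TTTCGCGG, TTTGCCGC, TTTGCCGG, TTTGGCGC and TTTGGCGG. These letters were chosen after the promoters had been read.
Dtl promoter, chr1:191575495-191575794, minus strand: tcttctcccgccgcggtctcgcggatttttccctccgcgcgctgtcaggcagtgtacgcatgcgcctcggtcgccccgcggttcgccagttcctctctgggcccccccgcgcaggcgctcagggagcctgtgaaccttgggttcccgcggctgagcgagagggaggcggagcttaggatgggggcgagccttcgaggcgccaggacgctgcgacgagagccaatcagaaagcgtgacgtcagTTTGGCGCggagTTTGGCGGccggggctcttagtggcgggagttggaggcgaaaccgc
Slbp promoter, chr5:33652525-33652824, minus strand: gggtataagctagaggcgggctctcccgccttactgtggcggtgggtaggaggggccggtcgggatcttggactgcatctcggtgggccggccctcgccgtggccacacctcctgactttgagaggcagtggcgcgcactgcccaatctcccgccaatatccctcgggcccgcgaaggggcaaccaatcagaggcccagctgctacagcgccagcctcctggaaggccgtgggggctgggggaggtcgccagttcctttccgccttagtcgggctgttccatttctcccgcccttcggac
Pola2 promoter, chr19:5964157-5964456, minus strand: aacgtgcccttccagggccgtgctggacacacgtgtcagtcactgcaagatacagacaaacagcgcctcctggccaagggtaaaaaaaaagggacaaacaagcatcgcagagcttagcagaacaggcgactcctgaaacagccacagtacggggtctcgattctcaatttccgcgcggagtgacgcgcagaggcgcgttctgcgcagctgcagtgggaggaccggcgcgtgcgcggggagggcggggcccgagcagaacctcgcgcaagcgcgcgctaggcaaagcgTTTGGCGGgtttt
Hells promoter, chr19:38930740-38931039, plus strand: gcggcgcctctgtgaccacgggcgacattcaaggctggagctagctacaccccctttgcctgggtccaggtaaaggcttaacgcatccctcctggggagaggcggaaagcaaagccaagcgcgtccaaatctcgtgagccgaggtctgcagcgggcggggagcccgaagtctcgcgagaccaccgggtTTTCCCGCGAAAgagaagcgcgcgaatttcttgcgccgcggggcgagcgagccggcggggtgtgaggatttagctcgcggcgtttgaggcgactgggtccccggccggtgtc

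The Dtl window held TTTGGCGC and TTTGGCGG beginning at -8 and 4 relative to the gene start, and the Pola2 window held TTTGGCGG beginning at 37. In the Hells window TTTCCCGC and, on the other strand, CCGCGAAA began at -62 and -58 and overlapped. These positions count from the RefSeq start. The start of Hells in the GENCODE annotation, chr19:38930915, lies before both strings, so there they fall inside the gene. No such letters stood in the Slbp window, which held the CCAAT box (CCAAT, both strands) 3 times. Promoters were listed for 35 of the 42 members, and 13 of the 35, or 37.1%, held E2F-like letters, against 5.14% of 27025 genes with promoters of the same length. The letters had been chosen after the promoters were read, and base content was not matched. This contrast is therefore a description only. The CCAAT box stood in 21 of the 35 members and in 41.1% of all these genes. The CHR element (TTTGAA, both strands), known from late cell cycle promoters, stood in 6 of the 35, or 17.1%, and in 20.2% of all. The 13 members with E2F-like letters had a median log2 fold change of 0.21 in GemC1 against GFP and 0.13 in Mcidas against GFP, and the 22 without them had 0.12 and -0.09. The ranges overlapped almost wholly, at -0.0018 to 0.78 with the letters and -0.37 to 0.72 without them in GemC1, and at -0.29 to 0.93 and -0.46 to 0.95 in Mcidas. Of the 4 called genes 3 are among the 13, so the medians are given as a description only. A match of letters shows neither binding nor control.

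Among the regulators of S phase, both Dtl and Slbp rose. Dtl (ENSMUSG00000037474, chr1:191537356-191575544, minus strand, GRCm38) encodes Cdt2, the receptor of a ubiquitin ligase that works at PCNA on DNA and removes Cdt1, p21 and other proteins in S phase. It was counted at 120.6, 120.6 and 127.0 CPM in the GemC1 libraries, 136.1, 139.6 and 132.1 CPM in the Mcidas libraries, and 79.8, 72.7 and 61.6 CPM in the GFP libraries. Each library with a factor lay above each GFP library. The log2 fold change was 0.78 ± 0.09 (SE, edgeR adjusted p = 0.000269) in GemC1 and 0.93 ± 0.09 (adjusted p = 4.93e-05) in Mcidas. Slbp (ENSMUSG00000004642, chr5:33634952-33652574, minus strand) encodes the stem-loop binding protein that processes and carries the mRNA of replication-dependent histones. Its levels were 155.3, 154.9 and 142.9 CPM in the GemC1 libraries, 192.3, 170.6 and 166.7 CPM in the Mcidas libraries, and 101.0, 92.1 and 81.4 CPM in the GFP libraries, again without overlap with GFP. Slbp rose by 0.72 ± 0.09 in GemC1 (adjusted p = 0.000518) and by 0.95 ± 0.09 in Mcidas (adjusted p = 4.43e-05) on the log2 scale. Both genes kept their calls in each of 16 alternative analyses. Of the exon bases of Slbp 7.80% also belong to an opposite-strand gene, Gm10459, and without strand information reads from such a stretch cannot be told apart. In both genes all 3 Mcidas libraries also lay above the 3 GemC1 libraries, but the direct comparison of GemC1 with Mcidas gave -0.15 ± 0.09 for Dtl (adjusted p = 0.537) and -0.23 ± 0.09 for Slbp (adjusted p = 0.333).

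**Figure D1:**
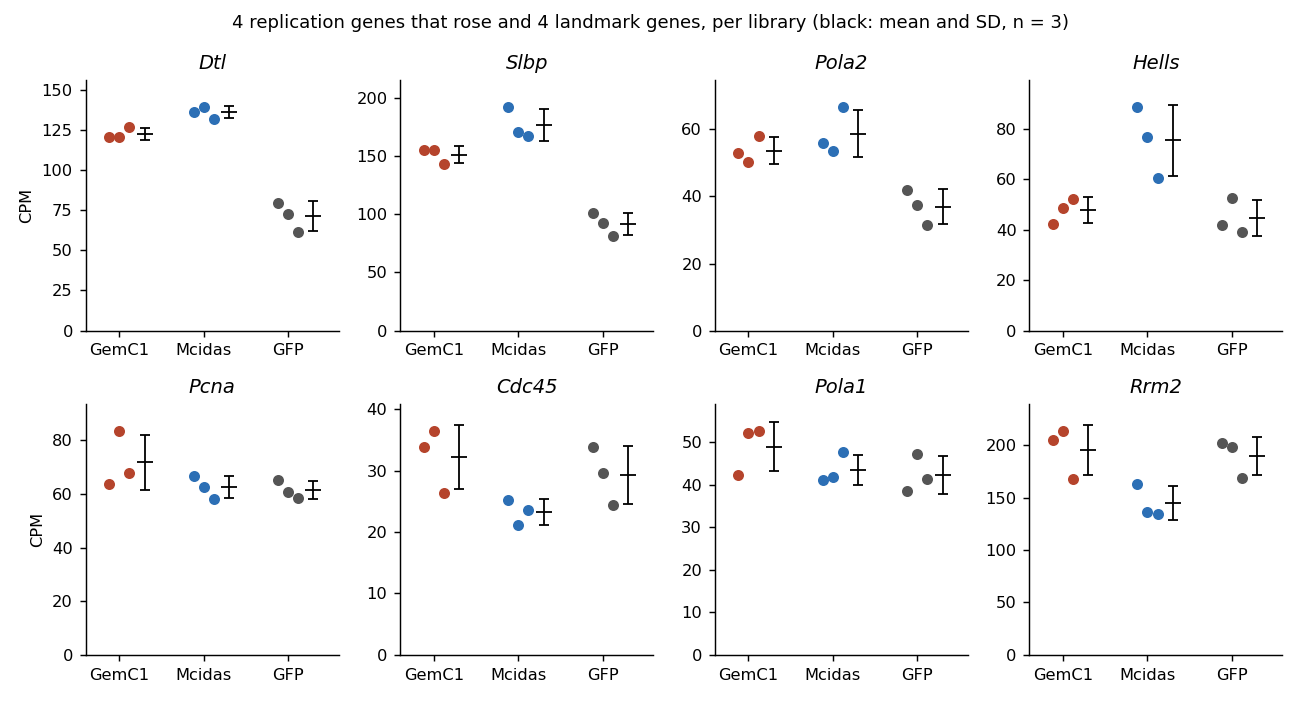
CPM (TMM scaled, linear axis from 0) of 8 replication genes in the GemC1, Mcidas and GFP libraries, 1 coloured point per library, with the mean and SD of the group in black (n = 3). The points of Dtl, Slbp and Pola2 with either factor lie above all GFP points, those of Hells do so in Mcidas, and those of Pcna, Cdc45 and Pola1 overlap with GFP, while the Mcidas points of Rrm2 (134.5 to 163.1 CPM) lie below GFP.

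Polymerase alpha-primase, the enzyme that starts each new strand, consists of the catalytic subunit Pola1, the B subunit Pola2, the primase Prim1 and its large subunit Prim2. Only Pola2 (ENSMUSG00000024833, chr19:5940542-5964202, minus strand) was called. It was counted at 52.9, 50.2 and 58.0 CPM in the GemC1 libraries, 55.9, 53.6 and 66.8 CPM in the Mcidas libraries, and 41.9, 37.5 and 31.4 CPM in the GFP libraries. The groups with a factor did not overlap with GFP, and the log2 fold change was 0.54 ± 0.12 (SE, edgeR adjusted p = 0.0259) in GemC1 and 0.67 ± 0.12 (adjusted p = 0.00614) in Mcidas. The Mcidas call held in all 16 alternatives, but 5 of them ended the GemC1 call. Leaving out GFP replicate 3 gave an adjusted p of 0.124, GFP replicate 2 0.0842, GemC1 replicate 3 0.0822 and GemC1 replicate 1 0.0602, and the replicate block gave 0.0557. Pola1 stood at 42.3, 52.2 and 52.7 CPM in the GemC1 libraries, 41.1, 41.9 and 47.7 CPM in the Mcidas libraries, and 38.6, 47.2 and 41.3 CPM in the GFP libraries, and these ranges overlapped. Its log2 fold change was 0.21 ± 0.12 in GemC1 and 0.04 ± 0.12 in Mcidas (adjusted p = 0.357 and 0.949). Prim1 had 0.02 ± 0.16 in GemC1 and -0.26 ± 0.16 in Mcidas, and Prim2 had 0.13 ± 0.12 and 0.11 ± 0.12, none of them called. The ratio of Pola2 to Pola1 within each library did not pass a test at this number of libraries (exact two-sided permutation p = 0.2 in GemC1 and 0.1 in Mcidas against GFP, where 0.1 is the smallest possible), and the ratios to Prim1 and Prim2 were not computed.

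The group that rebuilds chromatin behind the fork held the only member called in 1 comparison alone. Hells (ENSMUSG00000025001, chr19:38930915-38971051, plus strand) encodes LSH, a chromatin remodeller of the SNF2 family needed for DNA methylation. Hells was counted at 42.3, 48.8 and 52.3 CPM in the GemC1 libraries, 88.9, 77.1 and 60.6 CPM in the Mcidas libraries, and 41.98, 52.7 and 39.04 CPM in the GFP libraries. The lowest Mcidas library lay above the highest library of the other groups, and Mcidas replicate 1 was the highest of all. Hells rose by 0.76 ± 0.15 (SE) on the log2 scale in Mcidas (edgeR adjusted p = 0.00917) and had 0.10 ± 0.15 in GemC1 (adjusted p = 0.777). The direct test of GemC1 against Mcidas gave -0.66 ± 0.15 with an adjusted p of 0.138, so by edgeR the difference between the factors did not pass the threshold. DESeq2 called that difference (-0.67, adjusted p = 0.00356), as did edgeR with no filter on low counts (adjusted p = 0.00809). The Mcidas call against GFP was lost without GFP replicate 1 (adjusted p = 0.0545) and without GFP replicate 3 (adjusted p = 0.0555).

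Chaf1a and Chaf1b encode subunits of CAF-1, which places new histones on replicated DNA. For Chaf1b the libraries read 59.4, 56.7 and 62.4 CPM in GemC1, 62.7, 61.6 and 54.3 CPM in Mcidas, and 51.7, 41.8 and 34.5 CPM in GFP. Each library with a factor lay above the GFP libraries, the log2 fold change was 0.48 ± 0.13 (SE) in both comparisons, and the edgeR adjusted p was 0.0561 in GemC1 and 0.0648 in Mcidas. DESeq2 called Chaf1b in GemC1 (adjusted p = 0.0116) and in Mcidas (adjusted p = 0.0112), and edgeR did so in both with the stricter filter, with no filter and without GFP replicate 1. Chaf1a had 0.28 ± 0.15 in GemC1 and 0.35 ± 0.15 in Mcidas, not called, and 52.5% of its exon bases also belong to Ubxn6 on the opposite strand. Uhrf1, which brings the maintenance DNA methyltransferase to replicated DNA, had 0.10 ± 0.13 in GemC1 and -0.05 ± 0.13 in Mcidas.

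**Figure D2:**
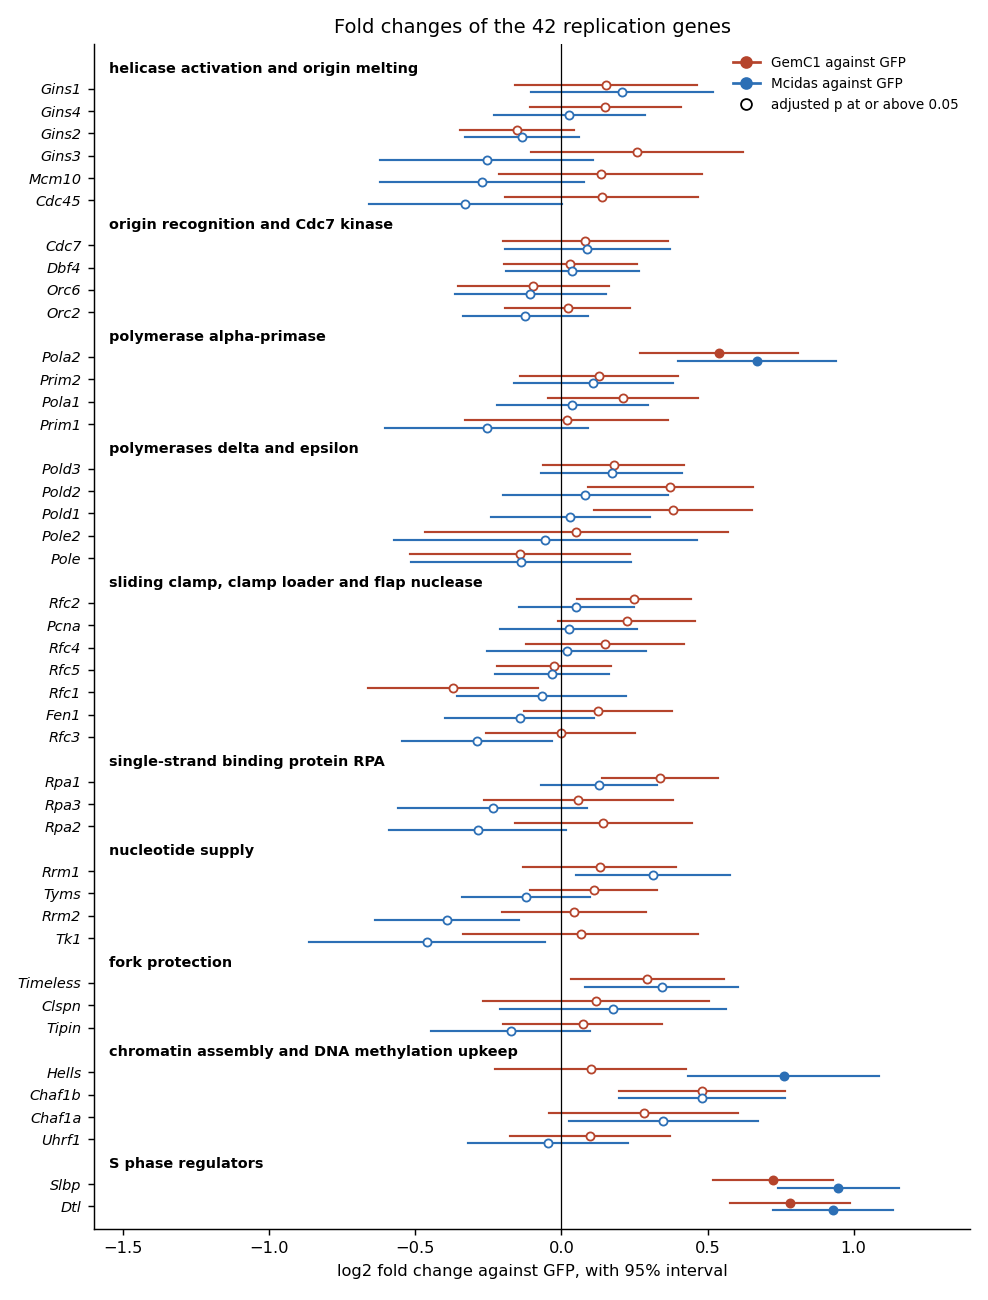
Log2 fold change against GFP, with its 95% interval, of the 42 replication genes in GemC1 (red) and Mcidas (blue), grouped by role and listed by gene. Filled points passed the adjusted p threshold of 0.05: Dtl, Slbp and Pola2 for both factors and Hells for Mcidas (0.76), while 32 of the other 39 intervals in GemC1 and 31 of the other 38 in Mcidas cross 0.

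None of the 6 helicase genes was called. Cdc45 and the 4 GINS subunits travel with the MCM ring as the active helicase, and Mcm10 helps to start it. Cdc45 was counted at 33.8, 36.4 and 26.3 CPM in the GemC1 libraries, 25.2, 21.1 and 23.6 CPM in the Mcidas libraries, and 33.8, 29.6 and 24.4 CPM in the GFP libraries. Its groups overlapped with GFP in both comparisons, at 0.14 ± 0.15 (SE) in GemC1 and -0.33 ± 0.15 in Mcidas (edgeR adjusted p = 0.68 and 0.403). The members of the group ran from -0.15 (Gins2) to 0.26 (Gins3) in GemC1 and from -0.33 (Cdc45) to 0.21 (Gins1) in Mcidas. Of Gins2's exon bases 67.3% are shared with Gse1 on the opposite strand.

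The genes for origin recognition and firing stayed close to their GFP level. Orc2 and Orc6 are subunits of the origin recognition complex, and Cdc7 and its activator Dbf4 form the kinase that fires licensed origins. Their log2 fold changes lay between -0.10 and 0.08 in GemC1 and between -0.12 and 0.09 in Mcidas, with none called. Each library of these 4 genes lay between 36.9 and 67.4 CPM. Of Orc2's exon bases 29.8% are shared with Nif3l1 on the opposite strand.

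Of the replicative polymerases, none of 5 genes was called. Pold1, the catalytic subunit of polymerase delta, stood at 98.6, 84.6 and 103.6 CPM in the GemC1 libraries, 76.7, 67.2 and 81.0 CPM in the Mcidas libraries, and 82.9, 77.0 and 60.2 CPM in the GFP libraries. GemC1 lay above both other groups, with 0.38 ± 0.13 (SE) against GFP (edgeR adjusted p = 0.106), and edgeR without a filter on low counts called it (adjusted p = 0.0342). The polymerase delta subunit Pold2 had 0.37 ± 0.13 in GemC1 (adjusted p = 0.13) and 0.08 ± 0.13 in Mcidas. Pole and Pole2 of polymerase epsilon had -0.14 ± 0.17 and 0.05 ± 0.24 in GemC1, and Pole2 was the least counted member in CPM, at 6.3 to 8.2 CPM in GemC1, 5.2 to 7.7 CPM in Mcidas and 5.0 to 8.3 CPM in GFP.

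Pcna, whose protein is the sliding clamp, was counted at 63.9, 83.5 and 67.9 CPM in the GemC1 libraries, 66.6, 62.7 and 58.3 CPM in the Mcidas libraries, and 65.2, 60.7 and 58.6 CPM in the GFP libraries. The groups overlapped, at 0.22 ± 0.11 (SE) in GemC1 and 0.02 ± 0.11 in Mcidas (edgeR adjusted p = 0.281 and 0.963). Pcna has annotated processed copies, Pcna-ps1 and Pcna-ps2, between which reads could be split. Of the 5 clamp loader genes Rfc1 had the lowest value of all members in GemC1, -0.37 ± 0.13 (adjusted p = 0.145). It was counted at 33.2, 47.0 and 48.3 CPM in the GemC1 libraries, 57.2, 54.5 and 46.9 CPM in the Mcidas libraries, and 55.5, 56.7 and 54.1 CPM in the GFP libraries. Rfc2 had 0.25 ± 0.09 in GemC1 (adjusted p = 0.146), and Rfc3, Rfc4 and Rfc5 lay between -0.02 and 0.15. In Mcidas Rfc3 had -0.29 ± 0.12 (adjusted p = 0.308), Rfc1 -0.07 ± 0.13 and Rfc2 0.05 ± 0.09, and Rfc4 and Rfc5 had 0.02 and -0.03. Opposite-strand genes share 15.1% of the exon bases of Rfc2, 12.7% of Rfc4 and 10.7% of Rfc5. Fen1, the nuclease that trims flaps from lagging strand fragments, had 0.13 ± 0.12 in GemC1 and -0.14 ± 0.12 in Mcidas, and 84.2% of its exon bases are shared with opposite-strand genes.

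RPA coats single-stranded DNA at the fork. Its large subunit Rpa1 was counted at 95.1, 98.2 and 98.97 CPM in the GemC1 libraries, 73.5, 87.2 and 92.7 CPM in the Mcidas libraries, and 79.2, 75.0 and 77.3 CPM in the GFP libraries. GemC1 lay above both other groups with little spread, and at 0.34 ± 0.09 (SE) against GFP its adjusted p by edgeR was 0.0545. DESeq2 called Rpa1 (adjusted p = 0.0165), and so did edgeR with no filter on low counts (0.0448), with only the groups compared (0.0358), without Mcidas replicate 1 (0.0244) and without Mcidas replicate 3 (0.0474). Rpa2 and Rpa3 had 0.14 ± 0.14 and 0.06 ± 0.15 in GemC1 and -0.29 ± 0.14 and -0.24 ± 0.15 in Mcidas, none called.

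Ribonucleotide reductase (Rrm1 and Rrm2), thymidylate synthase (Tyms) and thymidine kinase (Tk1) supply the nucleotides for DNA. Rrm2, the subunit whose supply limits the enzyme in S phase, stood at 204.8, 213.5 and 167.8 CPM in the GemC1 libraries, 163.1, 136.1 and 134.5 CPM in the Mcidas libraries, and 202.4, 198.1 and 168.4 CPM in the GFP libraries. All Mcidas libraries lay below the libraries of both other groups. The value in Mcidas was -0.39 ± 0.11 (SE, edgeR adjusted p = 0.0876) and in GemC1 0.04 ± 0.11 (adjusted p = 0.882). Rrm2 was called lower in Mcidas by DESeq2 (adjusted p = 0.0391), without a filter on low counts (adjusted p = 0.0101), with the replicate block (adjusted p = 0.0347) and without Mcidas replicate 1 (adjusted p = 0.0378). Tk1 had the lowest value of all members in Mcidas, -0.46 ± 0.19 (adjusted p = 0.304), with 21.1, 18.8 and 16.9 CPM in the Mcidas libraries against 31.0, 27.5 and 19.6 CPM in the GFP libraries. Rrm1 had 0.31 ± 0.12 in Mcidas (adjusted p = 0.265), the opposite sign to its partner subunit. Its groups overlapped, at 341.0, 296.1 and 418.8 CPM in the Mcidas libraries and 289.7, 300.2 and 259.8 CPM in the GFP libraries. Tyms had -0.12 ± 0.10 in Mcidas. In GemC1 these 4 genes lay between 0.04 and 0.13.

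Timeless and Tipin form the fork protection complex, and claspin (Clspn) passes the stalled-fork signal to the kinase Chk1. For Timeless the libraries read 59.3, 53.95 and 56.1 CPM in GemC1, 64.2, 55.7 and 55.3 CPM in Mcidas, and 53.4, 46.5 and 38.3 CPM in GFP. Both factors lay above GFP, at 0.29 ± 0.12 (SE) in GemC1 and 0.34 ± 0.12 in Mcidas, but neither was called by edgeR (adjusted p = 0.2 and 0.192). Tipin and Clspn had 0.07 ± 0.13 and 0.12 ± 0.18 in GemC1, and -0.17 ± 0.13 and 0.18 ± 0.18 in Mcidas.

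**Figure D3:**
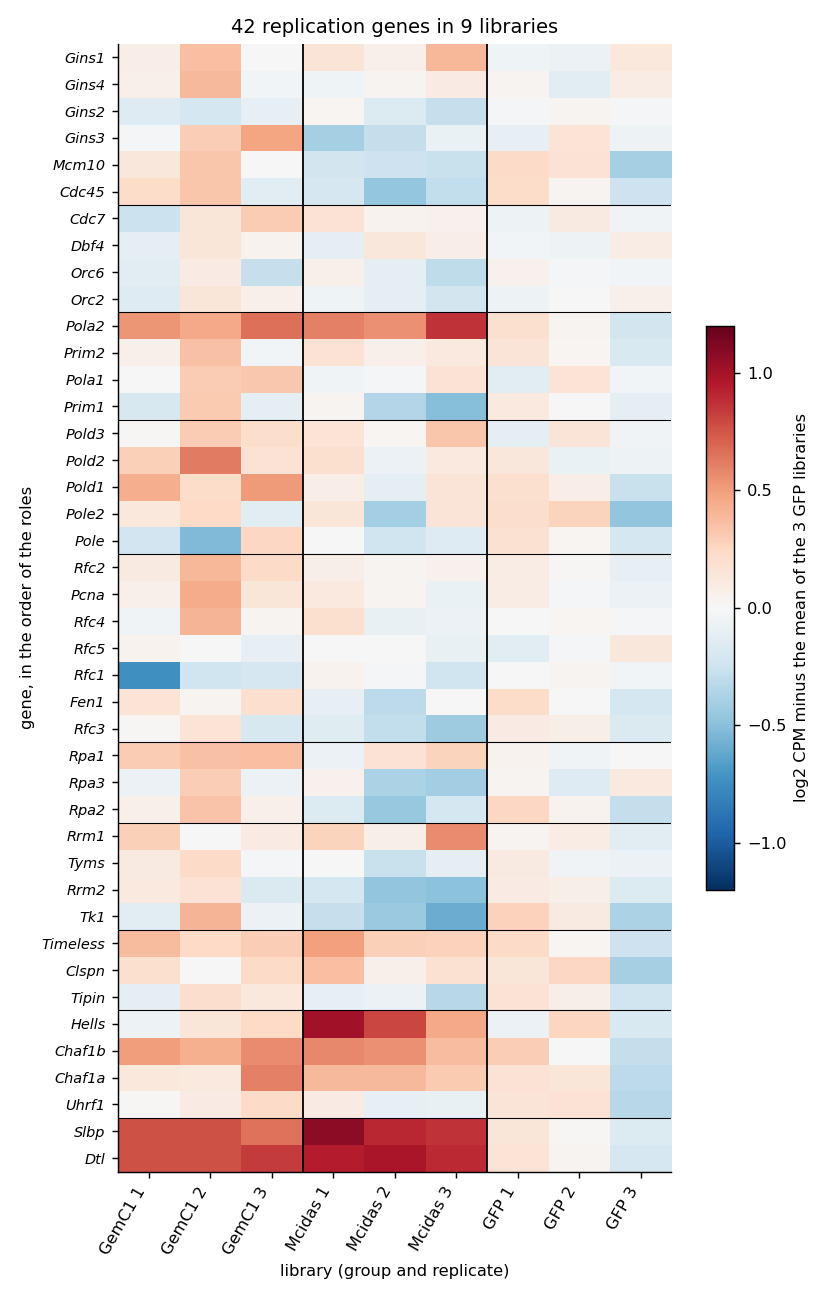
Log2 CPM of the 42 replication genes (rows, in the order of their roles) in each of 9 libraries (columns), minus the mean of the 3 GFP libraries. The rows of Dtl, Slbp and Pola2 are red in all 6 GemC1 and Mcidas libraries, that of Hells in the Mcidas libraries, and 29 of the 42 rows have their lowest GFP value in GFP replicate 3.

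The intervals of the members that were not called bounded their changes only to under 2-fold. For the 39 in GemC1 the 95% intervals of the log2 fold change reached from -0.66 at the lowest to 0.77 at the highest, and for the 38 in Mcidas from -0.87 to 0.77, so that no interval reached a 2-fold change. Intervals within a 1.5-fold change either way covered 33 of the 39 in GemC1 and 28 of the 38 in Mcidas. Some of the GemC1 intervals, such as that of Chaf1b, include 0.54, the called value of Pola2 in GemC1. The median log2 fold change of the 42 genes was 0.13 in GemC1 and 0.02 in Mcidas, where the median of all genes tested was -0.0004 and -0.03. In GemC1 36 of 42 members had a positive and 6 a negative value, where 49.9% and 50.1% of all genes did. In Mcidas 22 of 42 were positive and 20 negative, where 45% and 55% of all genes were. At an unadjusted p under 0.05 9 members were higher in GemC1 than in GFP and 1 lower, where 10.4% and 9.03% of all genes were, and 8 were higher in Mcidas and 3 lower, where 8.65% and 3.97% were. Groups did not overlap and GemC1 was higher than GFP for 9 of 42 members, where 13.2% of all genes did so, and lower for 2, where 11.7% did. For Mcidas these counts were 7, where 10.7% of all genes did so, and 1, where 8.87% did. Without GemC1 replicate 2 the GemC1 median was 0.05, and without GFP replicate 3 it was 0.07.

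GFP replicate 3 stood low for these genes. Of the 42 members, 29 had their lowest GFP value there, against 33.0% of all genes tested. As log2 CPM minus the GFP mean, the median member stood at 0.06, 0.27 and 0.12 with GemC1, 0.058, -0.045 and 0.025 with Mcidas, and 0.105, 0.03 and -0.143 with GFP alone. Excitatory neuron markers were highest in that GFP library, at 6998 summed CPM against 6023 and 6045, and radial glia markers were lowest, at 1251 against 1551 and 1612. Their part in the values of the members was not tested. In bulk samples fewer cells of a type and less RNA per cell cannot be told apart.

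In the direct comparison of GemC1 with Mcidas no member passed edgeR's adjusted threshold, where 0.0153% of all genes were called higher and 0.0358% lower. These shares include the introduced genes themselves, Gmnc among those higher and Mcidas among those lower. At an unadjusted p under 0.05 13 members were higher in GemC1 and 3 lower, where 6.37% of all genes were higher and 6.67% lower. The median was 0.13, with 27 of 42 positive and 15 negative, where 49.4% and 50.6% of all genes were. Without GemC1 replicate 2 that median was 0.049. DESeq2 called Rrm2 higher in GemC1 (0.42, adjusted p = 0.0257) and Hells lower, and edgeR without a filter on low counts called the same 2 genes. With edgeR Rrm2 had 0.43 ± 0.11 (SE, adjusted p = 0.175), Tk1 0.53 ± 0.19 (adjusted p = 0.263), Gins3 0.51 ± 0.17 (adjusted p = 0.237) and Cdc45 0.47 ± 0.15 (adjusted p = 0.239). All 3 GemC1 libraries lay above all 3 Mcidas libraries for 10 of 42 members, where 9.07% of all genes did so, and below them for 3, where 7.64% did. The 42 intervals reached from -0.99 to 0.93 and none reached a 2-fold change.

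Levels were compared between genes as CPM per kilobase of annotated exon, a length that counts every exon of a gene and can understate the level of genes with long rare exons. In the GFP group Rrm2 was highest at 68.4 ± 6.69 CPM per kilobase (SD, n = 3), followed by Rpa3 at 33.6 ± 3.26, Tipin at 33.5 ± 4.85, Gins4 at 32.02 ± 2.43 and Rfc4 at 31.96 ± 0.49. The last 4 did not differ beyond their spread. Lowest were Mcm10 at 3.15 ± 0.70, Pole2 at 2.47 ± 0.64 and Clspn at 1.79 ± 0.40. The order within a complex rests on these lengths. Per kilobase, Rpa3 at 33.6 stood above Rpa2 at 16.9 and Rpa1 at 13.8 in GFP, with 1136, 2993 and 5578 exon bases, but in CPM without length the order was the reverse, at 38.2, 50.7 and 77.2. Likewise Rrm1, with 11012 exon bases against 2771 for Rrm2, had the higher CPM, 283 against 189.6 in GFP. Pola2, the called subunit of the primase complex, stood at 6.47 CPM per kilobase in GemC1, 7.09 in Mcidas and 4.45 in GFP, and Pola1 at 5.57, 4.94 and 4.81.

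**Figure D4:**
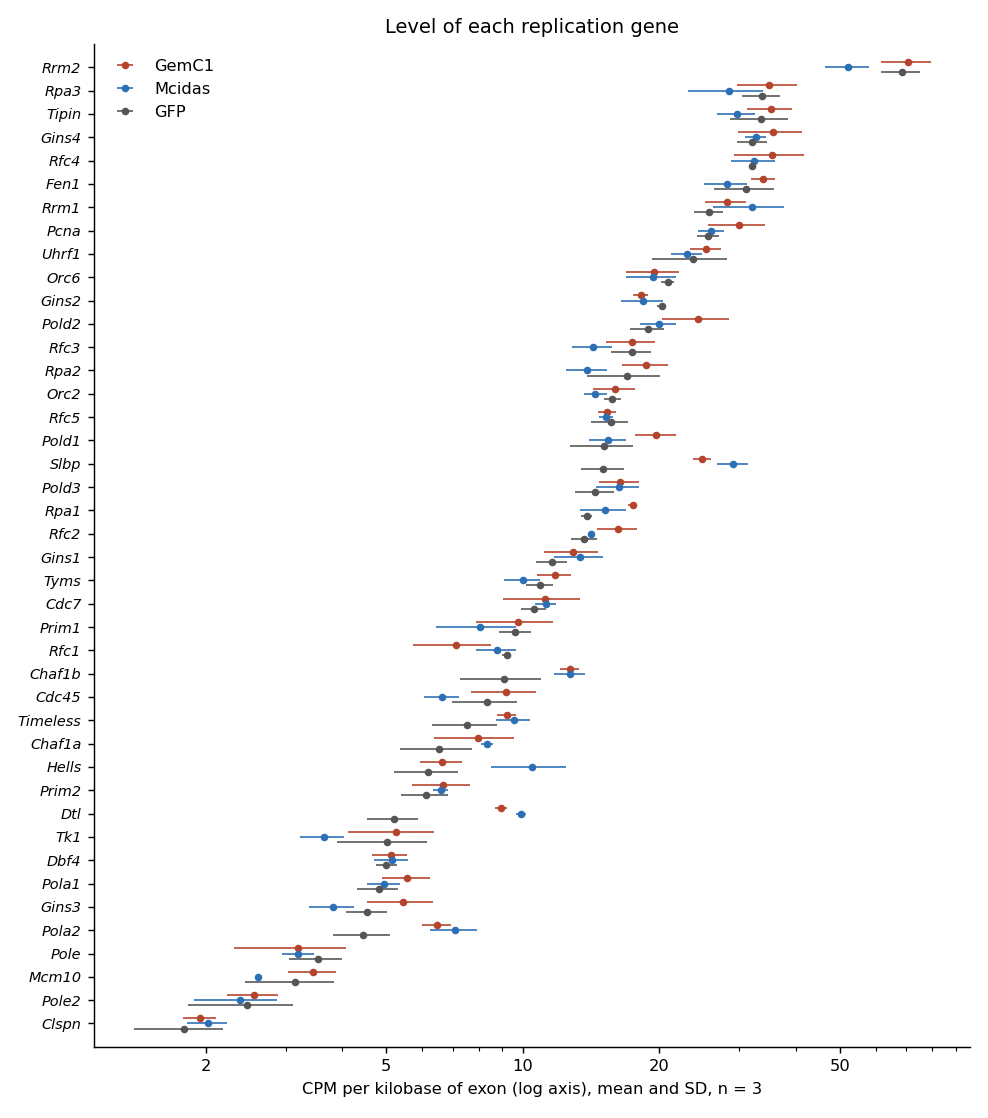
Mean level with SD (n = 3) of each replication gene in CPM per kilobase of exon, on a log axis, in the GemC1, Mcidas and GFP groups, ordered by the GFP level. Levels span from Clspn at 1.79 to Rrm2 at 68.4 CPM per kilobase in GFP, and the points of Slbp and Dtl with either factor stand apart from GFP.

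A wider list of 62 genes of replication and its control, none of them a member, was counted in the same way. This list too was chosen with earlier results of these data known. In GemC1 5 of 62 rose, or 8.06%, and none fell, where 3.86% of all genes tested rose and 1.32% fell. In Mcidas 6 rose, or 9.68%, and none fell, where 4.03% of all genes rose and 0.327% fell. The median log2 fold change was 0.04 in GemC1 and -0.07 in Mcidas. Cdt1, the licensing factor that Cdt2 and geminin restrain, was counted at 66.5, 66.5 and 72.4 CPM in the GemC1 libraries, 142.1, 132.7 and 155.1 CPM in the Mcidas libraries, and 29.7, 27.9 and 18.3 CPM in the GFP libraries. It rose by 1.43 ± 0.15 in GemC1 (edgeR adjusted p = 8.48e-05) and by 2.499 ± 0.15 in Mcidas (adjusted p = 1.11e-06) on the log2 scale. Between the factors Cdt1 passed the threshold, at -1.06 ± 0.14 (SE) for GemC1 against Mcidas (edgeR adjusted p = 0.0234), where 0.0358% of all genes were lower. Whether that call holds in the alternative analyses is not given here. If the year code of the Mcidas libraries marks a batch, it cannot be told apart from this difference. Wdhd1, which links the helicase to polymerase alpha, rose by 0.61 ± 0.11 in GemC1 (adjusted p = 0.00751) and by 0.59 ± 0.11 in Mcidas (adjusted p = 0.0071) on the log2 scale. The ligase Lig1 and the E2F repressor E2f7 rose with both factors. Dna2, a nuclease of lagging strand flaps, rose in GemC1 by 0.46 ± 0.12 (adjusted p = 0.0417) and had 0.43 ± 0.12 in Mcidas (adjusted p = 0.0597). Mcm3 of the MCM ring rose in Mcidas by 0.74 ± 0.10 (adjusted p = 0.000775) and Ssrp1 of the histone chaperone FACT by 0.52 ± 0.08 (adjusted p = 0.00175), with 0.36 ± 0.10 and 0.26 ± 0.08 in GemC1 (adjusted p = 0.0717 and 0.0903).

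Of 32 genes of G2 and mitosis 1 rose in GemC1, or 3.12%, where 3.86% of all genes tested rose. None rose in Mcidas, where 4.03% of all genes did. None fell in either comparison, where 1.32% and 0.327% of all genes fell. The gene that rose in GemC1 was Cdk1, the kinase of mitotic entry, at 0.60 ± 0.15 (SE, edgeR adjusted p = 0.0408). The median was 0.09 in GemC1 and -0.01 in Mcidas.

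Markers of other cell types moved with the groups. Of 10 excitatory neuron markers 3 fell in GemC1 and 1 fell in Mcidas, and their summed level ranged from 4839 to 5373 CPM in GemC1, 5241 to 5971 CPM in Mcidas and 6023 to 6998 CPM in GFP, with no marker at 0. All 10 had a negative log2 fold change in both comparisons. At an unadjusted p under 0.05 by edgeR 8 of them were lower in GemC1 and 3 in Mcidas. Of 14 microglia markers 10 rose in GemC1 and 2 in Mcidas, with summed levels of 77.7 to 113.8 CPM in GemC1, 49.0 to 71.0 CPM in Mcidas and 31.9 to 45.9 CPM in GFP. Among these Ptprc was at 0 in at least 1 Mcidas and 1 GFP library, and C1qa in at least 1 GFP library. Radial glia markers summed to 1742 to 1901 CPM in GemC1, 1278 to 1649 CPM in Mcidas and 1251 to 1612 CPM in GFP. Of these 10 markers none was called in GemC1 and 1 fell in Mcidas. In GemC1 7 were positive and 3 negative, with 4 higher and 1 lower at an unadjusted p under 0.05. In Mcidas 6 were positive and 4 negative, with 0 higher and 1 lower. Of 6 intermediate progenitor markers 1 fell in GemC1 and none passed the adjusted threshold in Mcidas, but the median log2 fold change was -0.15 in GemC1, with 4 of 6 negative and 1 lower at an unadjusted p under 0.05, and -0.33 in Mcidas, with 6 of 6 negative and 3 lower. Their summed level was 983, 1029 and 1199 CPM in GemC1, 1194, 916 and 918 CPM in Mcidas, and 1179, 1172 and 1152 CPM in GFP. All 10 multiciliated cell markers rose with both factors, with summed levels of 445 to 499 CPM in GemC1, 416 to 859 CPM in Mcidas and 26.8 to 31.0 CPM in GFP, where Cfap52 and Deup1 were at 0 in at least 1 library. None of the 7 interneuron or 5 oligodendrocyte precursor markers was called against GFP by edgeR, with 0 and 1 at an unadjusted p under 0.05 in GemC1 and 0 of either in Mcidas. Of the sparser lists only 6 of 9 endothelial and pericyte, 4 of 7 erythroid and 2 of 5 meningeal markers had enough counts to be tested, and none of those was called. At an unadjusted p under 0.05, 1 endothelial and 1 erythroid marker were lower and 1 meningeal marker was higher in GemC1, and none in Mcidas. The 6 endothelial and pericyte markers had a median log2 fold change of -1.84 in GemC1 and -0.13 in Mcidas, and 3 of the 9 were at 0 in all GemC1 libraries, against 0 of 9 in the Mcidas and in the GFP libraries. The part of these shifts in the values of the replication genes was not tested.

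**Figure D5:**
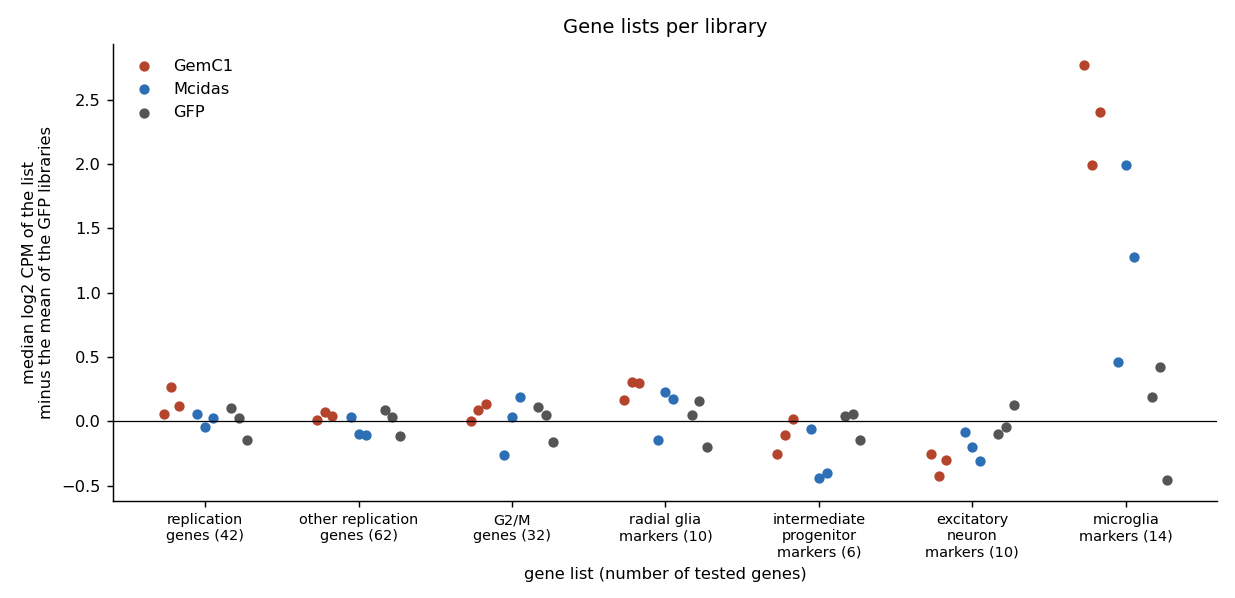
Median over each gene list of log2 CPM minus the mean of the GFP libraries, 1 point per library, for the GemC1, Mcidas and GFP groups. The 3 lists of cell cycle genes stay within 0.27 of 0 in every library, excitatory neuron markers lie lower in GemC1 than in GFP, and microglia markers lie higher in GemC1 (1.99 to 2.77).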

How the data were processed

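RNA was measured in 9 libraries, 3 each of the GemC1, Mcidas and GFP groups. Each library started from 10 ng of total RNA, amplified to cDNA by SMART-Seq v4 before Nextera XT tagging of 150 pg, and was read at 75 bp on a NextSeq 500, per the labels' protocols. The authors deposited whole-number counts of reads for each Ensembl gene. Their processing notes list mm10, STAR 2.5.2b, DESeq2 1.8.1 and HTSeq 0.5.3. Strand setting and annotation release: not given in the sources used here.

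Symbols, positions and exon lengths came from GENCODE M21 (GRCm38), which held 53274 of the 53379 identifiers. Groups were compared by edgeR 4.0.16 under R 4.3.3 (filterByExpr with minimum count 10 and minimum total 15, TMM, robust quasi-likelihood fit of all 9 libraries on group, two-sided), with Benjamini-Hochberg adjustment over 19572 genes and a threshold of 0.05. SE was derived from the F statistic, and 95% intervals from it and the total degrees of freedom of the fit (residual plus prior). Only the main edgeR fit was tested on simulated counts, with changes planted in well counted genes of the GemC1 group. The alternatives, the intervals, the letter search and the ratio tests were not tested so. Alternatives were DESeq2 1.42.0, its size factors in edgeR, no filter or a stricter one (1 CPM in 3 libraries and 50 counts in all), the replicate number as a block, only the groups compared, no mitochondrial, globin or plasmid genes, and each library left out.

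The members and lists were chosen with earlier results of these data known. Members called in any comparison, and Pcna, Cdc45, Pola1 and Rrm2, are given in every library. Other members shown so were chosen after their values were seen, and other-list genes are named where called. No label says whether replicates are separate litters, so each p-value reflects only how far these samples spread, which may be technical. The depth of each library sets the CPM worth of 3 counts, between 0.0729 and 0.131, for counting error only.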

Additional observations from a re-analysis of the deposited data

How the results depend on the processing

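Dtl and Slbp with either factor, and Pola2 in Mcidas, were called in all 16 alternatives. Members called higher in GemC1 numbered 5 by DESeq2 and 6 without a low-count filter, and 2 to 4 with 1 library left out. In Mcidas they numbered 3 to 5, and 1 member, Rrm2, was lower by DESeq2, with no low-count filter and with the replicate block (0 to 1 with 1 library left out). In GemC1 against Mcidas, DESeq2 and edgeR with no filter each called 1 member higher and 1 lower, and with 1 library left out 0 were called. Same-numbered libraries were not paired by the labels, and the correlation of their deviations from the group means ran from -0.07 to 0.05. With the replicate block GemC1 kept 2 members higher (Pola2 had 0.54, adjusted p = 0.0557), and 147 of all genes were lower in GemC1 and 3 lower in GemC1 against Mcidas. All-gene calls in GemC1 against GFP were 756 higher and 259 lower, 1159 and 654 by DESeq2, 557 lower with no filter, and 443 to 877 higher and 32 to 267 lower with 1 library left out. The extremes were 443 and 32 without GFP replicate 3, and 472 and 42 without GFP replicate 2, followed by 162, 161 and 163 lower without GemC1 replicates 1 and 2 and Mcidas replicate 2. In Mcidas against GFP 788 were higher and 64 lower, 114 lower by DESeq2, 123 lower with no filter, and 557 to 951 higher and 29 to 99 lower with 1 library left out (99 without Mcidas replicate 1, 29 without replicate 2 of Mcidas, 33 without its replicate 3, and for GFP 37 without replicate 1, 30 without replicate 2, 35 without replicate 3). In GemC1 against Mcidas 3 were higher and 7 lower, 193 and 305 by DESeq2, 66 and 129 with no filter, 2 lower with only the groups compared, 3 lower without mitochondrial, globin and plasmid genes, and 3 to 5 higher and 1 to 8 lower with 1 library left out. Values near 0 changed sign without being called. Leaving out 1 library, Rrm2 in GemC1 ranged from -0.035 (without GFP replicate 3; -0.022 without GemC1 replicate 2) to 0.14, Pola1 in Mcidas from -0.033 (without Mcidas replicate 3; -0.019 without GFP replicate 1) to 0.14, and Pcna in Mcidas from -0.014 (without Mcidas replicate 1; -0.0032 without GFP replicate 3) to 0.076. The median member in Mcidas against GFP was 0.021 with all libraries, -0.026 without Mcidas replicate 1 and -0.0080 without its replicate 3. The cause of these shifts was not tested. With 3 libraries a group, changes of the size of Chaf1b or Rpa1 fall on either side of the threshold.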

Other observations

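The ratio of the subunits of 2 enzymes was computed within each library from CPM per kilobase of exon, for pairs chosen after their values were seen. Rrm2 to Rrm1, the small to the large subunit of ribonucleotide reductase, was 2.36, 3.01 and 2.20 with GemC1, 1.90, 1.83 and 1.28 with Mcidas, and 2.78, 2.62 and 2.58 with GFP alone. The Mcidas libraries lay below both other groups. The ratio averaged 1.67 ± 0.34 in Mcidas and 2.66 ± 0.10 in GFP (SD, n = 3 each), with an exact two-sided permutation p of 0.1, the smallest that 3 against 3 libraries allow (0.15 adjusted over the 6 comparisons of ratios). Pola2 to Pola1, the B subunit to the catalytic subunit of polymerase alpha, was 1.33, 1.02 and 1.17 with GemC1, 1.45, 1.36 and 1.49 with Mcidas, and 1.15, 0.84 and 0.81 with GFP alone. Mcidas lay above both other groups (exact p = 0.1 against GFP, adjusted 0.15), and GemC1 overlapped with GFP (exact p = 0.2, adjusted 0.24).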
